A study of Mus musculus with 8 samples.

Results

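Cxcl10 and 6 genes that act with it, the chemokine genes Cxcl9 and Cxcl11, their shared receptor Cxcr3, the cytokine gene Ifng and its receptor genes Ifngr1 and Ifngr2, were described in the thymus of mice after spaceflight. They are 7 of the 19938 genes measured, and each was read by a single probe set (a group of array probes for the same transcript) annotated to that gene alone. The set was chosen by the difference of Cxcl10 between spaceflight and ground control on these arrays, so the differences of these 7 genes are given as a description without a test. RNA came from thymus lobes of 8 C57BL/6NTac mice, of which 4 went on a shuttle flight of 13 days at 8 weeks of age and 4 were ground controls matched in age and sex and housed in like enclosure modules. No transgene or drug is named for either group, and housing in the modules was common to both. The time between landing and dissection is not given in the sources used here. Values are log2 expression values with 1 array per mouse, so a difference of 1 is a doubling.

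CXCL9, CXCL10 and CXCL11 are small secreted proteins that attract cells bearing CXCR3, a receptor coupled to G proteins on activated T cells, NK cells and some thymocytes. Interferon gamma, made mainly by T and NK cells, binds a receptor of IFNGR1 and IFNGR2 chains, and JAK kinases bound to these chains then start the signal that reaches genes including all 3 ligands. Cxcl10 also responds to type I interferons and to NF-kappa-B, while Cxcl9 depends more closely on interferon gamma. In the thymus these ligands can come from epithelium, stroma and myeloid cells. Bulk RNA cannot tell fewer cells of a type from less RNA per cell.

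The 250 bases before the start sites of Cxcl10 and Cxcl9 are shown because both genes answer to interferon, lie close together on chromosome 5 and yet differed in size of change. RefSeq (build GRCm38.p6) held upstream sequence for 6 of the 7 genes. Cxcl11 has no entry there, and the same RefSeq release lists it as a transcribed pseudogene in the C57BL/6J reference. Capitals mark matches to the interferon-stimulated response element core, to an interferon gamma activation site (TTCNNNGAA) or to the kappa-B consensus, each searched on both strands, 5′ to 3′ along the gene. The first sequence is chr5:92348890-92349139 on the minus strand and the second chr5:92328080-92328329 on the minus strand.
Cxcl10: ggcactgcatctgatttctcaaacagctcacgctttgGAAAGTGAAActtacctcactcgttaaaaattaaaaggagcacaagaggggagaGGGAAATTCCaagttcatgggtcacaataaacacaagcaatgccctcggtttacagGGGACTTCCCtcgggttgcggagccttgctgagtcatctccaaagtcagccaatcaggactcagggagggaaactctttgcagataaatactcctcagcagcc
Cxcl9: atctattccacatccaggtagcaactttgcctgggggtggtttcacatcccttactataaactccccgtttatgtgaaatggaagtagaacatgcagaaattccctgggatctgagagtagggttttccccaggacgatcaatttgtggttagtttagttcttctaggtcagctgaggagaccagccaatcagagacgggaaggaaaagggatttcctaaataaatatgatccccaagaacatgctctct

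The Cxcl10 window held 1 response element core, GAAAGTGAAA, from 213 to 204 bases before the start. It also held 2 kappa-B matches, GGGAAATTCC from 159 to 150 and GGGACTTCCC from 103 to 94 bases before the start. None of the matches overlapped another. The Cxcl9 window held no match to these 3 patterns, and both windows held 1 CCAAT box (CCAAT). Among 32851 windows of this length in the table, 2.98% held the response element core, 7.02% the activation site, 3.90% a kappa-B match and 33.8% a CCAAT box. The Ifng window held 1 activation site match and the Ifngr2 window 1 kappa-B match, and the Cxcr3 and Ifngr1 windows held none of the 3. A match is a description of the letters and not a binding site. Elements whose letters depart from these patterns were not searched for, so a window without a match may still hold response elements. Whether the windows bear on the differences of the 2 genes was not tested.

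Among the arrays, spaceflight replicates 1 and 3 differed from the rest in spread, with an interquartile range over genes of 2.22 for each and 2.55 to 2.84 for the other 6. Over all 8 arrays, the median of the gene differences was 0.10 in the dimmest of 4 equal classes of genes and -0.13 in the brightest, and without these 2 arrays it lay between -0.03 and 0.00 in each class. The differences of the named genes and the list medians are therefore also given without these 2. The tissue label was checked against thymocyte markers: the mean log2 level of the 5 measured (Cd3e, Cd4, Cd8a, Rag1 and Ptcra) was 10.01 to 10.33 in spaceflight and 10.24 to 10.32 in ground control.

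Of the ligand genes, Cxcl10 was far lower after spaceflight, Cxcl9 was lower by a smaller step, and Cxcl11 lay at the same level within its spread. Cxcl10 (probe set 10531415) read 9.09, 8.87, 8.97 and 8.81 in the 4 ground-control mice and 7.01, 7.58, 7.34 and 7.82 in the spaceflight mice. The groups did not overlap, and the highest spaceflight mouse was 0.99 below the lowest control. The means were 8.94 ± 0.12 and 7.44 ± 0.34 (log2, SD, n = 4 each), a difference of -1.50 ± 0.16 (SE from the limma fit), or 2.83-fold lower. Only 9 of the 19938 genes had a lower difference than Cxcl10. Without spaceflight replicates 1 and 3, which were the lowest 2 mice for this gene, the difference was -1.24 ± 0.13, with 10 genes lower.

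**Figure D1:**
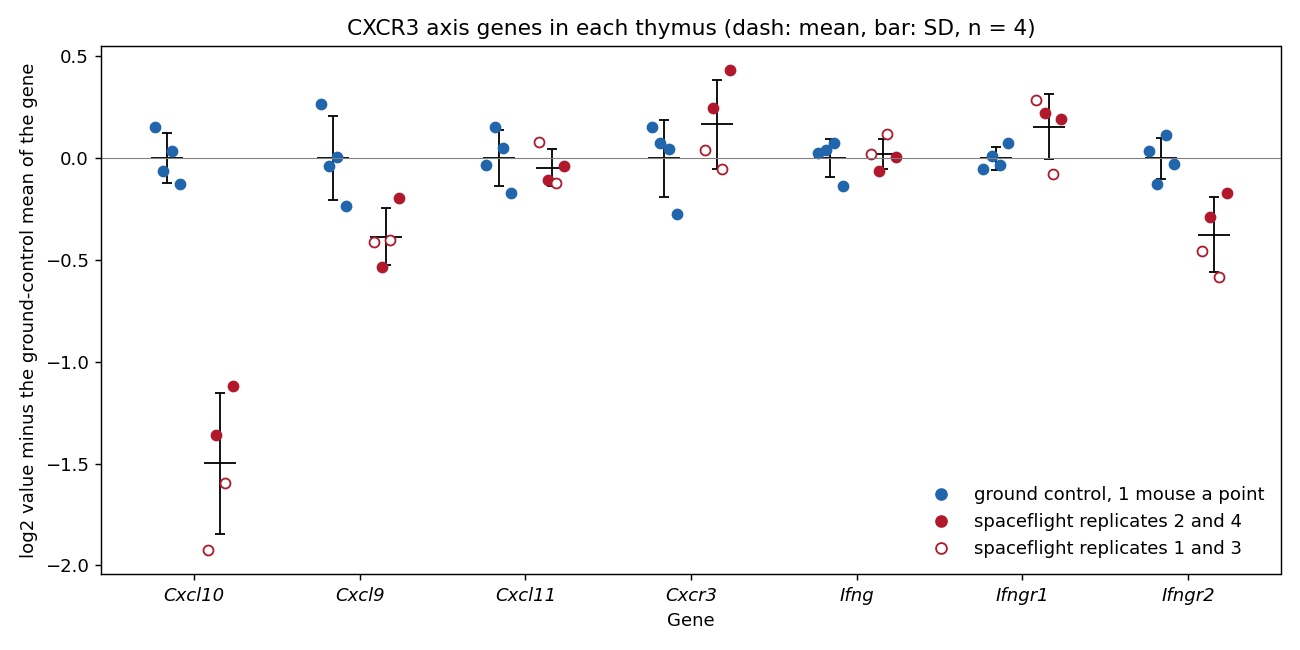
Log2 value of each of the 7 genes in each mouse, minus the mean of that gene over the 4 ground controls, with ground control in blue and spaceflight in red (open circles are spaceflight replicates 1 and 3; dash and bar are mean and SD, n = 4). The 4 spaceflight values of Cxcl10 lie clear of the controls, those of Ifngr2 just clear, and those of the other 5 genes overlap them.

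Cxcl9 (probe set 10531407), the ligand gene close to Cxcl10 on the chromosome, read 7.15, 6.85, 6.89 and 6.65 in ground control and 6.48, 6.35, 6.48 and 6.69 in spaceflight. The groups met at a single pair, spaceflight replicate 4 lying 0.04 above ground-control replicate 4. The difference was -0.38 ± 0.13 (SE), or 1.31-fold lower, and -0.36 ± 0.16 without spaceflight replicates 1 and 3. In the fit over all genes Cxcl9 did not reach a limma adjusted p under 0.05. Cxcl11 (probe set 10531420), whose product in other mouse strains is the third CXCR3 ligand, read 5.61, 5.80, 5.69 and 5.47 in ground control and 5.72, 5.54, 5.52 and 5.60 in spaceflight. Its groups overlapped fully, with a difference of -0.05 ± 0.11 (95% interval -0.29 to 0.20), and -0.07 without spaceflight replicates 1 and 3. Its sign turned under some other settings. The deposited table gives no detection call, so whether such a low value reflects transcript or background cannot be read from it.

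Taken array by array, the change of Cxcl10 exceeded that of Cxcl9 by 1.11 ± 0.16 (SE over arrays, n = 4 each). The log ratio of Cxcl10 to Cxcl9, set to 0 at the ground-control mean, ran from -0.11 to 0.11 in the controls and from -1.52 to -0.82 in the spaceflight mice. A shift common to both probe sets of an array cancels in this ratio. As Cxcl10 was chosen for its size of difference, its excess over Cxcl9 is a description with no test.

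Cxcr3, the gene of the receptor for the ligands, was not lower in spaceflight. Its probe set (10606058) read 6.97, 6.89, 6.86 and 6.55 in ground control and 6.86, 7.07, 6.76 and 7.25 in spaceflight. The groups overlapped, with spaceflight replicate 4 the highest mouse of all and ground-control replicate 4 the lowest. The difference was 0.17 ± 0.14 (95% interval -0.14 to 0.47), and 0.34 ± 0.14 without spaceflight replicates 1 and 3, so it moved up where those arrays were left out.

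Ifng, the gene of the cytokine that induces all 3 ligands, showed no shift larger than its spread. Its probe set (10366586) read 4.49, 4.50, 4.54 and 4.33 in ground control and 4.48, 4.40, 4.58 and 4.47 in spaceflight, a range of values that is dim throughout. The difference was 0.02 ± 0.10 (95% interval -0.20 to 0.24), or -0.03 without spaceflight replicates 1 and 3. Its sign turned under 4 alternative settings, that one included. A level this low limits what the array could show of a change in Ifng.

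Of the chains of the interferon gamma receptor, Ifngr2 had a lower mean in spaceflight and Ifngr1 did not. Neither reached a limma adjusted p under 0.05 in the fit over all genes. Ifngr1 (probe set 10361897), the chain that binds the cytokine, read 10.21, 10.27, 10.23 and 10.33 in ground control and 10.54, 10.48, 10.18 and 10.45 in spaceflight. Of the spaceflight mice, 3 were above every control and replicate 3 was below them all, for a difference of 0.16 ± 0.11 (95% interval -0.09 to 0.40), and 0.21 without spaceflight replicates 1 and 3. Ifngr2 (probe set 10436865), the chain that completes the signalling receptor, read 9.16, 9.00, 9.24 and 9.10 in ground control and 8.67, 8.84, 8.54 and 8.96 in spaceflight. The groups did not overlap, though only 0.04 parted the nearest mice, and the difference was -0.37 ± 0.12, or 1.30-fold lower. Without spaceflight replicates 1 and 3, which held its lowest values, the difference was -0.23 ± 0.11.

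**Figure D2:**
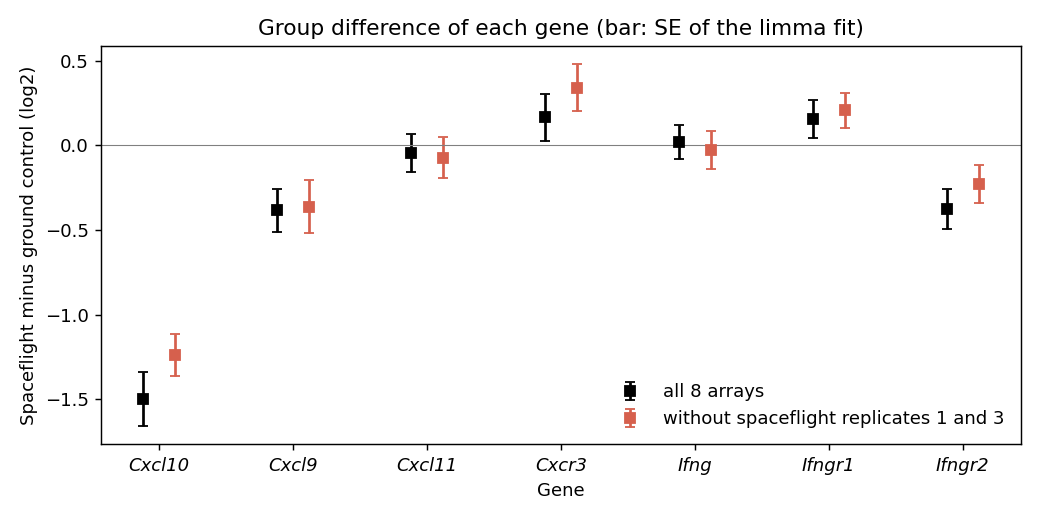
Difference between spaceflight and ground control (log2) for each of the 7 genes, with all 8 arrays in black and without spaceflight replicates 1 and 3 in red; bars are the SE of the limma fit. Cxcl10 stands at -1.50 and -1.24, and the other 6 genes lie between -0.38 and 0.34 in both.

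In the fit over all genes 1 of the 7, Cxcl10, was at a limma adjusted p under 0.05, where 0.0802% of all genes (16, of which 13 were lower and 3 higher) were called. The lower calls were 0.0652% and the higher calls 0.015% of all genes. Adjusted over all 28943 probe sets in place of 1 per gene, 10 genes were called, Cxcl10 among them. Cxcl10 and Ifngr2 were the 2 whose groups did not overlap, both lower, against 4.28% of all genes that did so as lower and 1.73% as higher. As the genes were chosen with this contrast known, nothing is read from these counts. The median difference over the 7 genes was -0.05, beside -0.02 over all genes.

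Spaceflight replicate 4 had the highest value of its group for 4 of the 7 genes (Cxcl10, Cxcl9, Cxcr3 and Ifngr2), as it had for 27.7% of all genes. Spaceflight replicate 3 had the lowest for 4 (Cxcl11, Cxcr3, Ifngr1 and Ifngr2) and for 27.5% of all genes. Among the controls, replicate 4 was the lowest for 5 of the 7 (Cxcl10, Cxcl9, Cxcl11, Cxcr3 and Ifng) and for 24.2% of all genes. These counts are a description of 7 genes on single arrays. Cxcl10 was the most variable of the 7 in spaceflight, with an SD of 0.34 against 0.08 to 0.22 for the others. Its SD in ground control was 0.12.

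The genes that flank the ligand cluster were measured as well, to see whether the region differed as a whole. Art3, an ADP-ribosyltransferase gene that overlaps the cluster in RefSeq, differed by 0.03 ± 0.24. On one side, Sdad1 differed by -0.29 ± 0.15, Naaa, an amide hydrolase gene, by -0.29 ± 0.22, and Ppef2, a phosphatase gene, by -0.28 ± 0.13. On the other side, Nup54, a nuclear pore gene, differed by -0.17 ± 0.16, Scarb2, a lysosomal membrane protein gene, by 0.00 ± 0.12, and Fam47e by 0.16 ± 0.11. None of the 7 was called (limma adjusted p from 0.462 to 0.996, n = 4 each), and in each of them the groups overlapped. Without spaceflight replicates 1 and 3 the differences were 0.39 for Art3, -0.15 for Sdad1, 0.11 for Naaa, -0.48 for Ppef2, -0.02 for Nup54, 0.18 for Scarb2 and 0.17 for Fam47e.

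The 5 genes whose profile over the 8 arrays lay nearest to that of Cxcl10 were Hsph1, Ptger3, Skint9, Thrsp and Acly. Likeness was the root mean square difference between profiles, each set to 0 at its own ground-control mean, and it was 0.31 for Hsph1, a gene of a large heat shock protein. It was 0.36 for the prostaglandin receptor gene Ptger3, 0.38 for Skint9, of a family expressed in thymic epithelium and skin, 0.39 for Thrsp, a lipogenic regulator, and 0.41 for Acly, which makes cytosolic acetyl-CoA. Set this way, the measure holds the group difference itself, so a gene ranks near Cxcl10 largely by a fall of similar size. That all 5 were lower in each spaceflight mouse than in any control mostly restates this choice. Without spaceflight replicates 1 and 3 their differences were -1.74, -1.33, -0.70, -1.33 and -1.38 in the order named. Shared regulation with Cxcl10 was not tested. Skint9 had its highest spaceflight value in replicate 4 (5.24) and its lowest in replicate 1 (4.56), as Cxcl10 had. The same measure gave 0.81 for both Ifngr2 and Cxcl9 and 1.06 to 1.20 for the other 4 genes of the axis, and 837 genes lay nearer than Ifngr2.

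Around these genes, 9 lists of their pathway were examined, covering 139 measured genes other than the 7. None was called in the limma fit over all genes, while 21 were lower and 1 was higher at an unadjusted p under 0.05. That is 15.1% lower, beside 7.38% of all genes, and 0.719% higher, beside 3.43%. The mean was lower in spaceflight for 114 of the 139 (82.0%), beside 53.5% of all genes. By class of brightness, the share of genes that were lower was 23.9% in the dimmest, then 38.5% and 73.5%, and 78.2% in the brightest. The 139 were not split by these classes. Without spaceflight replicates 1 and 3 the mean was lower for 77 of 139, where 53.4% of all genes were lower. At an unadjusted p under 0.05, 9 of the 139 were then lower and 5 higher, beside 3.97% and 3.49% of all genes, and 0 were called. The median over the 139 was -0.15 with all arrays and -0.03 without those 2, beside -0.02 and -0.01 over all genes.

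Genes that carry the interferon gamma signal, 15 of 16 measured, had a median of -0.14 with all arrays and 0.02 without spaceflight replicates 1 and 3, and none passed at an unadjusted p under 0.05. Irf1, the transcription factor gene that interferon gamma induces first, read 8.55, 8.27, 8.52 and 8.51 in ground control and 7.66, 8.48, 7.72 and 8.54 in spaceflight. Replicates 1 and 3 were low and replicates 2 and 4 at the level of the controls. Cxcl10, which was chosen for its difference, was low in all 4 spaceflight mice. A second, dimmer probe set of Irf1 differed by 0.03, against -0.36 for the one used. The other 3 members of smallest p were Irf9 (-0.30 ± 0.15), part of the type I interferon complex, Ptpn2 (-0.25 ± 0.13), a phosphatase that dampens JAK signals, and Irf8 (-0.35 ± 0.18), a myeloid transcription factor. Without replicates 1 and 3 these stood at -0.04, -0.07 and -0.05, and Irf1 at 0.05.

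Of the other target genes of interferon gamma, 17 of 22 were measured, and their median was -0.22 with all arrays and 0.03 without spaceflight replicates 1 and 3. At an unadjusted p under 0.05, 4 of the 17 were lower and 0 higher, beside 7.38% and 3.43% of all genes. These 4 were also the ones whose groups did not overlap, beside 4.28% of all genes that did so as lower. Cd274, which encodes the checkpoint ligand PD-L1, read 8.05, 8.33, 7.95 and 7.94 in ground control and 7.36, 7.69, 7.58 and 7.48 in spaceflight. All 4 spaceflight mice were below all controls, by -0.54 ± 0.12 in the mean (limma adjusted p = 0.177, n = 4 each), and the difference was -0.48 without replicates 1 and 3. Gbp4, a guanylate-binding protein gene, differed by -0.31 ± 0.10 and by -0.30 without them. Nos2, the inducible nitric oxide synthase gene, differed by -0.36 ± 0.12, and Ciita, the regulator of MHC class II genes, by -0.34 ± 0.13, and these were at -0.24 and -0.18 without them. Adjusted p-values of the last 3 ran from 0.346 to 0.393 (limma).

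Target genes of type I interferon, 18 of 20 measured, had a median of -0.16 with all arrays and -0.06 without the 2 arrays. At an unadjusted p under 0.05, 4 of the 18 were lower and 0 higher, beside 7.38% and 3.43% of all genes. The 4 were Rtp4 (-0.45 ± 0.12), a receptor transporter gene, Zbp1 (-0.48 ± 0.15), a sensor of nucleic acid, and the 2'-5' oligoadenylate synthase family genes Oasl2 (-0.42 ± 0.16) and Oas2 (-0.34 ± 0.14). Adjusted p-values were 0.268 to 0.422 (limma, n = 4 each). Without the 2 arrays they stood at -0.28, -0.28, -0.19 and -0.37. Among the target genes of both kinds of interferon measured here, the lowest difference was the -0.54 of Cd274, beside -1.50 for Cxcl10. As Cxcl10 was chosen for its size of difference, this gap is a description with no test.

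Genes that feed interferon gamma production, 15 of 15 measured, had a median of -0.13 with all arrays and -0.04 without the 2. Hlx, a transcription factor of type 1 helper T cells, differed by -0.46 ± 0.14, Runx3, a factor of the CD8 lineage, by -0.36 ± 0.15, and the interleukin 12 subunit genes Il12a and Il12b by 0.24 ± 0.12 and -0.20 ± 0.11. Adjusted p-values were 0.326 to 0.502 (limma), and without the 2 arrays these 4 stood at -0.35, -0.23, 0.10 and -0.11. Among other inputs to the ligand genes, such as NF-kappa-B subunits, type I interferon receptors and nucleic acid sensors, all 19 of 19 measured genes had a lower mean in spaceflight. Beside them, 53.5% of all genes had a lower mean, from 23.9% in the dimmest class of genes to 78.2% in the brightest. The median of the 19 was -0.19 and became 0.02 without the 2 arrays. The non-canonical NF-kappa-B genes Nfkb2 (-0.45 ± 0.15) and Relb (-0.40 ± 0.15) had the smallest p, followed by the cytokine Tnf (-0.19 ± 0.11) and the adaptor Mavs (-0.25 ± 0.14). None was called (adjusted p from 0.349 to 0.509, limma), and without the 2 arrays the 4 stood at -0.27, -0.19, -0.17 and -0.09.

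**Figure D3:**
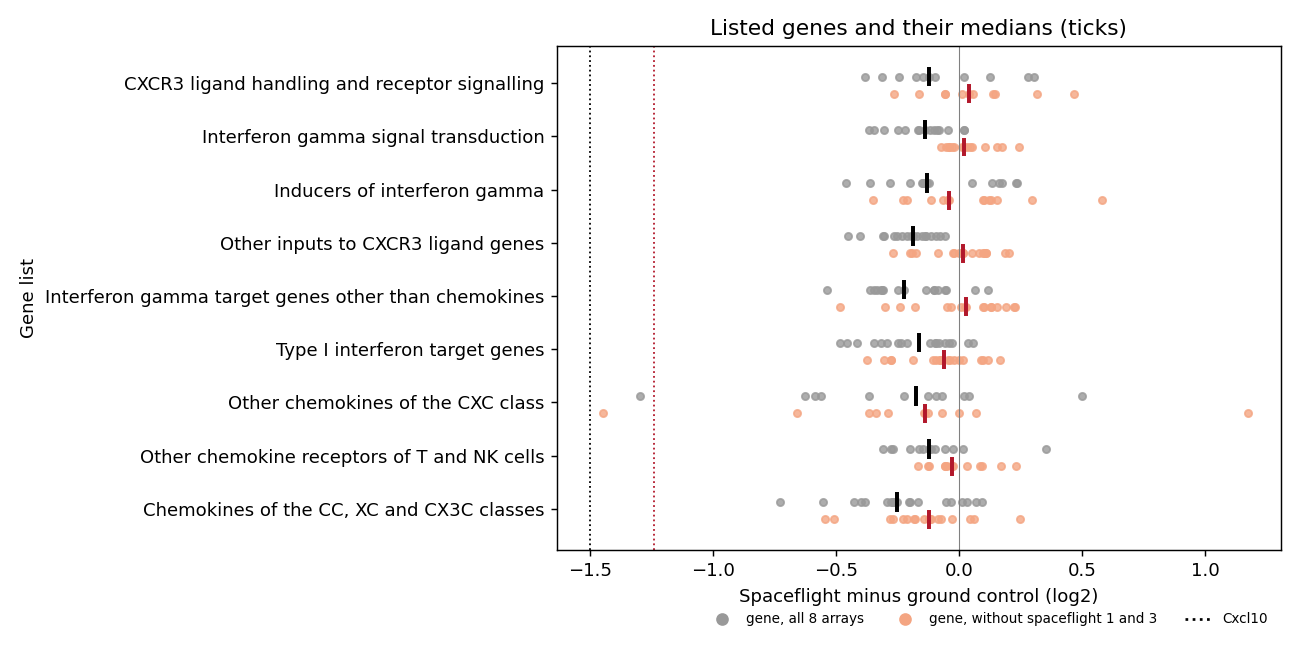
Difference between spaceflight and ground control (log2) of each gene in the 9 pathway lists, in grey with all 8 arrays and in orange without spaceflight replicates 1 and 3; ticks are list medians and dotted lines are Cxcl10 in the same 2 settings. The medians lie from -0.25 to -0.12 with all arrays and from -0.14 to 0.04 without the 2, while Cxcl10 lies at -1.50 and -1.24.

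Genes that handle the ligands or carry the CXCR3 signal, 11 of 12 measured, had a median of -0.12, and 0.04 without the 2 arrays. Dpp4, the surface protease that trims and inactivates CXCR3 ligands, read 9.09, 9.12, 9.20 and 9.14 in ground control and 9.37, 9.71, 9.19 and 9.51 in spaceflight. It was higher by 0.30 ± 0.12, with replicate 3 inside the range of the controls, and by 0.47 without the 2 arrays (limma adjusted p = 0.418 and 0.236). Arrb1, an arrestin that uncouples receptors, differed by -0.31 ± 0.14, Sdc1, a syndecan whose sugar chains hold chemokines, by -0.38 ± 0.17, and Pik3cg, a kinase downstream of G proteins, by 0.28 ± 0.14. None of these was called (adjusted p from 0.447 to 0.471, limma), and without the 2 arrays they stood at -0.16, -0.26 and 0.32.

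Set among the 34 chemokine genes listed and measured, Cxcl10, which was chosen for its size of difference, had the lowest difference with all arrays. Of the 34, 27 had a lower mean in spaceflight, beside 53.5% of all genes. Without spaceflight replicates 1 and 3, 29 of the 34 had a lower mean, beside 53.4% of all genes, and Cxcl15 (-1.45) lay below Cxcl10 (-1.24). Ccl12, a monocyte chemoattractant gene, read 5.66, 5.74, 5.95 and 5.92 in ground control and 5.13, 5.31, 4.69 and 5.24 in spaceflight. Its groups did not overlap, with a difference of -0.73 ± 0.15 (limma adjusted p = 0.110, n = 4 each), and -0.54 without the 2 arrays. Cxcl16, a membrane-bound chemokine gene, differed by -0.63 ± 0.17 and by -0.29 without them, Ccl11, the eotaxin gene, by -0.55 ± 0.17 and -0.27, Ccl17, a ligand of CCR4, by -0.43 ± 0.12 and -0.51, and Ccl5, the RANTES gene, by -0.40 ± 0.17 and -0.12. Of the platelet and neutrophil chemokine genes, Cxcl5 differed by -0.59 ± 0.21, Ppbp by -0.56 ± 0.26 and Pf4 by -0.36 ± 0.21, and without the 2 arrays by -0.66, -0.34 and -0.12. Ground-control replicate 3 was the highest control for Cxcl5 (5.92) and Ppbp (7.20), and without it they differed by -0.34 and -0.32. None was called (adjusted p from 0.280 to 0.516 for these 7, limma).

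The next lowest chemokine gene after Cxcl10 was Cxcl15, a gene of lung epithelium, named here after its value was seen. It read 9.63 in ground-control replicate 3 and 3.99 to 4.52 in the other 7 mice, so its difference of -1.30 ± 0.97 came from 1 control mouse, and it was 0.06 without that array. The highest difference was that of Cxcl13, the B cell attractant gene, also named after its value was seen, at 0.50 ± 0.37 and 1.17 without the 2 arrays. The CXC list had a median of -0.17 and the list of CC, XC and CX3C chemokines one of -0.25, and without the 2 arrays these were -0.14 and -0.12. The listed chemokine receptor genes other than Cxcr3 had a median of -0.12 with all arrays and -0.03 without the 2. Cxcr1 (0.36 ± 0.17), Ccr4 (-0.27 ± 0.14), Ccr7 (-0.31 ± 0.16) and Ccr9 (-0.16 ± 0.10), a receptor that guides thymocytes, had the smallest p among them (adjusted p from 0.464 to 0.532, limma), and without the 2 arrays they stood at 0.08, -0.06, -0.05 and -0.17.

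**Figure D4:**
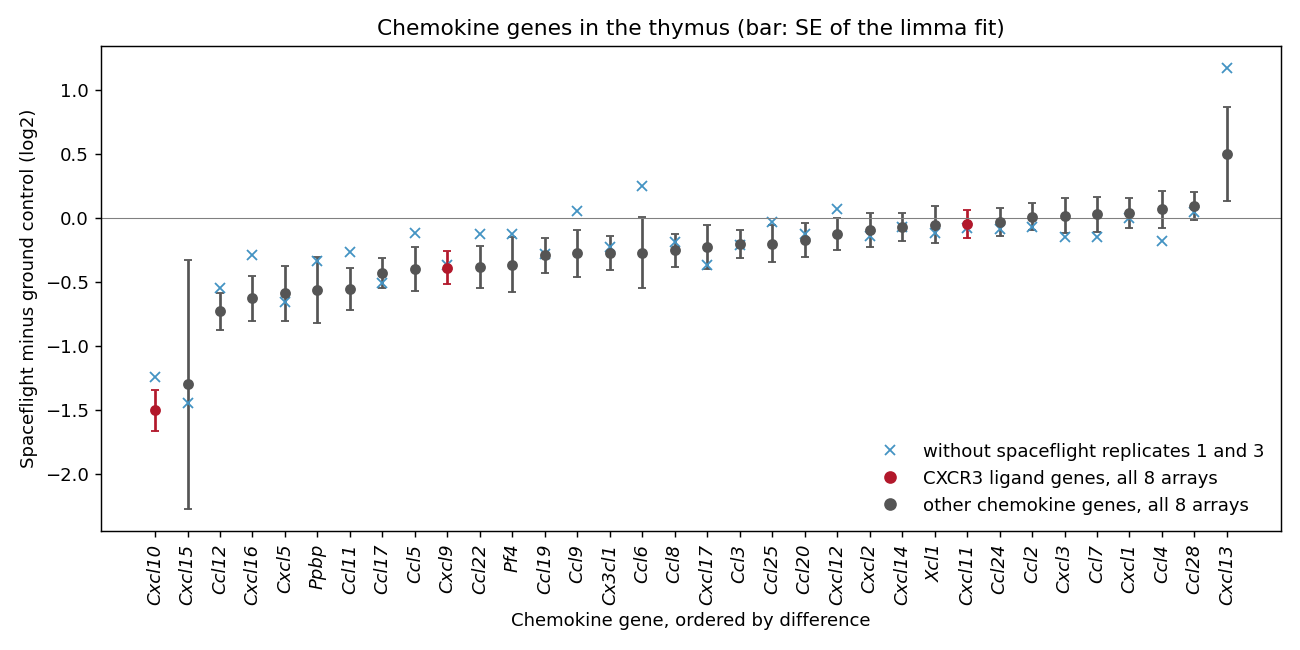
Difference between spaceflight and ground control (log2) for the 34 chemokine genes listed and measured, in order, with the 3 ligand genes of CXCR3 in red and the others in grey (bar: SE of the limma fit); crosses are the differences without spaceflight replicates 1 and 3. Cxcl10 is the lowest with all arrays at -1.50, and Cxcl15 at -1.30 has the widest bar, 0.97.

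Markers of cells that can make or answer these chemokines were set beside the result. Cortical epithelium markers (6 of 6 measured) had a mean level of 8.51 to 8.89 in spaceflight and 9.06 to 9.19 in ground control, so the groups did not overlap. Gene by gene, 3 of the 6 did not overlap, all lower, beside 4.28% of all genes. The brightest 2, Prss16 (-0.14 ± 0.16) and Ccl25 (-0.20 ± 0.14), overlapped, and without spaceflight replicates 1 and 3 they stood at 0.17 and -0.03. Fat cell markers (4 of 5) also did not overlap in mean level, at 8.05 to 9.27 and 9.32 to 9.77. Gene by gene, 1 of these 4 did not overlap. The brightest, Fabp4, overlapped, at -0.10 ± 0.16 and 0.01 without spaceflight replicates 1 and 3. Adipoq read 7.31 in spaceflight replicate 1 and 8.98 to 9.18 in the other 3. The groups overlapped for medullary epithelium (6.83 to 7.47 and 7.40 to 7.60), dendritic cells and macrophages (6.51 to 7.12 and 6.87 to 7.08) and NK and cytotoxic T cells (5.46 to 5.79 and 5.69 to 5.77). They also overlapped for B cells (6.69 to 7.41 and 6.62 to 7.33), endothelium (6.50 to 7.20 and 6.92 to 7.84) and fibroblasts (7.22 to 8.56 and 7.94 to 8.65). The list medians of the difference, with all arrays and then without spaceflight replicates 1 and 3, were -0.41 and -0.32 for cortical epithelium, -0.68 and -0.31 for fat cells, and -0.28 and -0.13 for medullary epithelium. They were -0.15 and 0.11 for dendritic cells and macrophages, -0.02 and -0.06 for NK and cytotoxic T cells, and -0.05 and 0.19 for B cells. For endothelium they were -0.35 and -0.08, for fibroblasts -0.09 and 0.15, and for thymocytes -0.15 and -0.06. None of the marker genes was called in the limma fit, and of 54 tested, 10 were lower (18.5%, beside 7.38% of all genes) and 0 higher (beside 3.43%) at an unadjusted p under 0.05. Without the 2 arrays 7 were lower (beside 3.97% of all genes), 4 higher (beside 3.49%) and 0 called. No marker reads 0 on this scale. The part of these cells in the Cxcl10 difference was not tested.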

How the data were processed

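Thymus RNA of 8 mice was measured on Affymetrix arrays, 1 per mouse. The authors deposited log2 values. RMA and limma are named, without versions, in the submitters' processing notes. RMA corrects background, equalises distributions between arrays and summarises the probes of a probe set, which can compress small differences and spread a shift of whole arrays over genes. Over the genes used here the deposited distributions were not equal, with interquartile ranges of 2.22 to 2.84 and medians of 6.14 to 6.29. Build and filters are not given in the sources used here. Of 35557 probe sets, the lowest unbroken run of identifiers (6614, with no gene annotated) was taken as controls. Single-gene probe sets (21789 of 28943, of which 21698 matched RefSeq GRCm38.p6) gave 19938 genes, with the probe set of highest mean standing for each. No low-value filter was applied, so all 7 members entered.

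Groups were compared with limma 3.58.1 in R 4.3.3 (lmFit, eBayes, two-sided, all 8 arrays, no block), with Benjamini-Hochberg adjustment over all genes at 0.05. The fit was tested on simulated data. The members and the 18 lists (208 genes, 192 measured) were chosen with earlier results of these data known. The text names all members, up to 4 genes of smallest p in each pathway list, the 5 genes nearest to Cxcl10 and up to 3 flanking genes a side. Alternatives changed the centring, normalization, filter, probe set choice, weights, variance prior, block and arrays used. Replicate numbers are not said to pair mice. P-values set a difference between groups against the spread between mice (4 a group), which limma moderates over all genes. The number of arrays limits the precision.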

Additional observations from a re-analysis of the deposited data

Results flagged for a closer look

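No array of the 7 genes of the CXCR3 axis lay far from the rest of its group by Dixon's test. Over the 74 genes tested for the text, 9 of 148 groups held 1 array far from the other 3, where chance gives about 1 in 20. In ground-control replicate 3, Cxcl15 read 9.63 (others 4.03 to 4.31), Cxcl5 5.92 (others 4.85 to 5.02), Col1a1 8.92 (others 7.89 to 8.05), Ccr4 7.71 (others 7.65) and Tnf 6.32 (others 6.44 to 6.46). Irf1 read 8.27 in ground-control replicate 2 (others 8.51 to 8.55). In spaceflight replicate 4, Sdc1 read 7.14 (others 6.66 to 6.69) and Hlx 6.35 (others 5.92 to 5.97). Adipoq, a fat cell marker, read 7.31 in spaceflight replicate 1 (others 8.98 to 9.18).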

How the results depend on the processing

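The difference of Cxcl10, which chose the genes, ran from -1.63 to -1.24 over the 18 alternatives, as a description. The count of genes called over the whole table was 16, and it was 6 (3 lower) when arrays were centred on their 75th percentile, which moved the median of all genes by 0.14, 25 when dim genes were dropped, 10 over all probe sets and 6 to 15 without single arrays. Leaving out spaceflight replicates 1 and 3 gave 16 genes, 8 lower and 8 higher, of which 9 were among the first 16. Same-numbered mice did not deviate together (correlations from -0.30 to 0.24 over 4 pairs), so the numbers were not taken as pairs. The replicate block gave 20 genes. The cause of these changes was not tested. Centred on 75th percentiles, the difference was -0.25 for Cxcl9 (-0.38 as reported), -0.24 for Ifngr2 (-0.37), 0.31 for Cxcr3 (0.17) and 0.29 for Ifngr1 (0.16), and the list median was -0.08 for interferon gamma targets (-0.22) and -0.02 for type I interferon targets (-0.16). The difference of Cxcl11 turned to 5.3e-05 when centred on medians, 0.093 on 75th percentiles and 0.0055 without ground-control replicate 2, in a range of -0.10 to 0.0055 without single arrays. That of Ifng turned to -0.081 with repeated quantile normalization, -0.028 without spaceflight replicates 1 and 3, and -0.012 and -0.025 without spaceflight replicate 3 and ground-control replicate 4, in a range of -0.025 to 0.048 without single arrays.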
